A study of Mus musculus with 15 samples.

Results

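The response of AM-14 mouse B cells to PL2-3 was compared with their response to anti-IgM plus CpG, across all genes of the deposited array values. The comparison rests on the 3 arrays titled PL2-3 and the 3 arrays titled anti-IgM+CpG, which are 6 of the 15 arrays of the series. AM-14 B cells carry a transgenic B cell receptor that binds self IgG, and that transgene was shared by every group. PL2-3 is a monoclonal antibody to chromatin, and its treatment was labelled as chromatin immune complexes. The other group received anti-IgM and CpG, as 2 separate ligands, and its titles name both agents although its treatment field reads none. The labels of the series describe anti-IgM as F(ab')2 fragments of goat antibody to mouse IgM. They describe CpG as the phosphorothioate oligodeoxynucleotide 1826. The treatment field of this group does not state these forms. The remaining 9 arrays held cells kept in media, cells given anti-IgM and cells given CpG, with 3 arrays each. Ages, doses and times of stimulation are not in the labels. Whether replicates are separate animals or cultures is not labelled either, so the p-values below measure only the spread between these arrays, which may be technical.

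An immune complex of IgG and chromatin binds the AM-14 receptor through its IgG, and the receptor then carries the bound DNA into endosomes, where TLR9 recognises it. Anti-IgM crosslinks the same receptor but carries no DNA, and CpG oligonucleotides reach TLR9 without it. The B cell receptor signals through Syk, Btk, calcium and ERK, while TLR9 signals through MyD88 to NF-kB and interferon regulatory factors. Type I interferon, acting on its receptor, activates a complex of transcription factors that binds interferon-stimulated response elements in the promoters of antiviral genes. The comparison asks how a ligand that links receptor and TLR9 differs from separate ligands of the same receptors.

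Promoters of 4 interferon-stimulated genes that were lower with PL2-3 are shown because the letters of the response element stand in each. They are RefSeq windows of GRCm38.p6, from 250 bases before to 50 after the start of the gene, on the strand of the gene and written 5′ to 3′. Capitals mark each match to the interferon-stimulated response element (ISRE) motif on either strand. Ifit3 lies at chr19:34583279-34583578 on the plus strand, Ifit1 at chr19:34640639-34640938 on the plus strand, Bst2 at chr8:71537423-71537722 on the minus strand and Irgm1 at chr11:48871371-48871670 on the minus strand.
Ifit3: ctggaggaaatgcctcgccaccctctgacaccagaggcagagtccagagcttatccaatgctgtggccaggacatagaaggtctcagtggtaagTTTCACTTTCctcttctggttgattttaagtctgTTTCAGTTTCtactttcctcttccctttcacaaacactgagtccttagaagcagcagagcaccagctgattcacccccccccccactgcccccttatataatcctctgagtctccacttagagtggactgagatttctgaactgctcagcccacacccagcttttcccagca
Ifit1: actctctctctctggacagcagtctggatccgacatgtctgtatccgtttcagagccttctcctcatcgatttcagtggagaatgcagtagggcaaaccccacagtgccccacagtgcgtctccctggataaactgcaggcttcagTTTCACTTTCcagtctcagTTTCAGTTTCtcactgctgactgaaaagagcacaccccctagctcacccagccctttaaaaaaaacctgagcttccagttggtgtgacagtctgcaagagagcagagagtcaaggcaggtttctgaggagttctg
Bst2: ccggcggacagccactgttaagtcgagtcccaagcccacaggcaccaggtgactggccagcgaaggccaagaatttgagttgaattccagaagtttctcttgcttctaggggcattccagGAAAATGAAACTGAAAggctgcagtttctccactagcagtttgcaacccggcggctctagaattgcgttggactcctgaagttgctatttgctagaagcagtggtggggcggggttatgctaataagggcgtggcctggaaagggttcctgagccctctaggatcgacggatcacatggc
Irgm1: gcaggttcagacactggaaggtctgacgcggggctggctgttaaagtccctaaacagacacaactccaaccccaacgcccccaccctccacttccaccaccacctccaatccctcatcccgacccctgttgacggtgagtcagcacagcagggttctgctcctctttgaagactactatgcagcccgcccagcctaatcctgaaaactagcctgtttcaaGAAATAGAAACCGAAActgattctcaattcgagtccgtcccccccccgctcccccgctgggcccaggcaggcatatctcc
Each of the 4 windows held 2 matches, which overlapped in Bst2 and Irgm1.

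The ISRE motif stood in the windows of 14 of the 27 interferon-stimulated genes with a window (51.85%), against 380 of 10616 tested genes with a window (3.58%) and 1131 of all 32851 windows (3.443%). TTCNNNGAA, the letters of the element bound by STAT dimers, stood in 9 of these 27 windows (33.33%), against 899 of the 10616 windows of tested genes (8.468%). A kappaB motif, a form of the NF-kB site, stood in 0 of the 27 windows and in 59 of the 10616 (0.5558%). All 3 motifs were searched on both strands. Among the genes called higher with PL2-3 in both fits described below, 22 had a window, and 0 of these held the ISRE motif or TTCNNNGAA. So few windows say little beside shares of 3.58% and 8.468% of tested genes. Of the genes called lower in both fits, 20 had a window, 8 with the ISRE motif and 5 with TTCNNNGAA. Of these 20, 10 were not on the interferon-stimulated list, and 3 of the 10 held the ISRE motif. The other 10 were on that list, and 5 of them held it (50%), a share near the 51.85% of the whole list. The motif thus did not set the lower members apart from the rest of the list. These matches describe the letters only, since binding was not measured.

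Gene values were MAS5 signals, a linear intensity on each array. Differences are PL2-3 minus anti-IgM+CpG on the scale log2(signal + 75.19), where the added constant is the 20th percentile of the table. They are given ± SE from a limma fit over all 15 arrays with n = 3 per group. A gene was called at a limma adjusted p under 0.05, and only called genes are said to be higher or lower. Array medians lay between 262.81 and 514.24, and 13160 genes were tested.

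The labels put replicates 1 and 2 of every group on the Enzo labelling kit and replicate 3 on the Ambion kit. The beta-actin control probe sets measure how far labelled RNA extends towards the 5′ end of a transcript. Their 5′ to 3′ ratio was 0.467, 0.392 and 0.108 on the 3 PL2-3 arrays and 0.105, 0.193 and 0.177 on the 3 anti-IgM+CpG arrays. Outside the anti-IgM+CpG group the 8 arrays labelled Enzo lay between 0.335 and 0.747 and the 4 labelled Ambion between 0.108 and 0.201. All 3 anti-IgM+CpG arrays, 2 of them labelled Enzo, thus lay below every array of the other groups that was labelled Enzo. The GAPDH ratio was 0.609, 0.686 and 0.263 with PL2-3 and 0.135, 0.409 and 0.368 with anti-IgM+CpG, where the other arrays labelled Enzo began at 0.469. The groups of 3 differed with an exact permutation p of 0.3 for either ratio (two-sided), and 0.1 is the smallest p that such groups allow. Median signals were 430.32, 495.96 and 291.43 with PL2-3 and 302.9, 265.76 and 276.74 with anti-IgM+CpG.

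**Figure D1:**
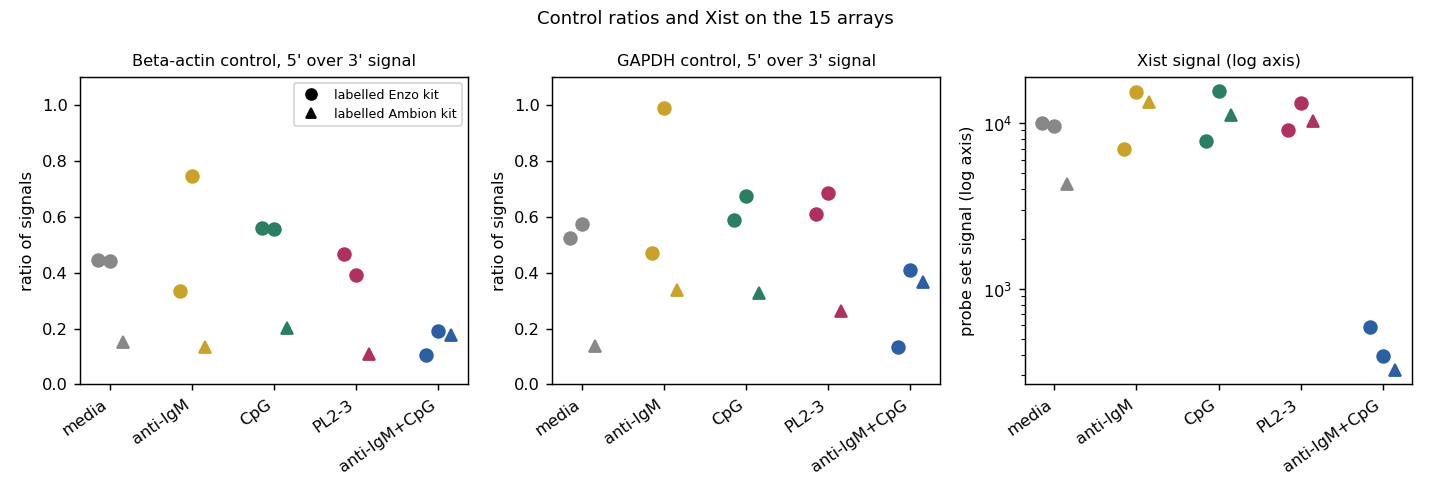
Control ratios and Xist on each of the 15 arrays; the left and middle panels plot the 5′ over 3′ signal of the beta-actin and GAPDH controls and the right panel the Xist signal on a log axis. Circles are arrays labelled Enzo and triangles arrays labelled Ambion; the 3 anti-IgM+CpG arrays have beta-actin ratios of 0.105 to 0.193 and Xist signals of 321 to 589, below all other groups in Xist.

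Because of this, a second fit replaced the kit label by the measured class of each array (beta-actin ratio under 0.25, or above), and its values are given as actin-based. Some genes moved with the ratio. The signal of Syt11, chosen after its values were seen, was 475 and 973 on PL2-3 replicates 1 and 2 and 66525 on replicate 3, against 79700, 44084 and 62512 with anti-IgM+CpG. In media it was 959 and 827 on the arrays labelled Enzo and 58033 on the array labelled Ambion. Its difference of -4.16 ± 0.93 (limma adjusted p 0.0349) became -0.19 in the actin-based fit. Pik3cd, a B cell PI3-kinase subunit also chosen after its values were seen, read 33406, 52141 and 2866 with PL2-3 and 2969, 3150 and 3488 with anti-IgM+CpG, with 2.40 ± 0.60 by the kit labels and 0.11 actin-based. Genes are therefore named below by size only where both fits called them.

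Xist, the RNA that coats the inactive X chromosome of female cells, gave signals of 9033, 13098 and 10256 with PL2-3 and 589, 391 and 321 with anti-IgM+CpG. All 9 arrays of the other groups lay between 4252 and 15543. The difference was 4.43 ± 0.34 (limma adjusted p 8.41e-06), the largest called in both fits, and 4.29 ± 0.38 actin-based. The Y-linked gene Eif2s3y read 1436, 895 and 1517 with PL2-3 and 2930, 4769 and 2486 with anti-IgM+CpG (-1.33 ± 0.39, adjusted p 0.0839), with 1933 to 4782 in media. Kdm5d and Uty, also Y-linked, differed by -0.79 ± 0.34 and -0.80 ± 0.41 and were not called. Of the 59 genes called in both fits, Xist was the 1 gene on X or Y. The sex of the animals is not in the labels, and any difference in the animals behind these arrays cannot be told apart from the stimuli.

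With the kit as labelled, 242 of 13160 genes were called (1.84%), 174 higher with PL2-3 (1.32%) and 68 lower (0.517%). The actin-based fit called 89 (0.676%), 44 higher (0.334%) and 45 lower (0.342%). Both fits called 59 genes, 29 higher and 30 lower, and 0 in opposite directions. In all 59 the 3 PL2-3 arrays lay wholly on one side of the 3 anti-IgM+CpG arrays, which was also so for 765 of all tested genes with PL2-3 below (5.81%) and 1526 with PL2-3 above (11.6%). The kit labels alone called 183 genes and the actin-based fit alone 30. The median difference over all tested genes was 0.10, and 0.07 actin-based. Shifting every array to the same median moved it to -0.31 and the share of calls that were higher from 71.9% to 13.4%. Among arrays with a low beta-actin ratio, where PL2-3 is its replicate 3 alone, limma called 0 genes and 773 had an unadjusted p under 0.05. The arrays labelled Enzo gave 1356 calls.

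**Figure D2:**
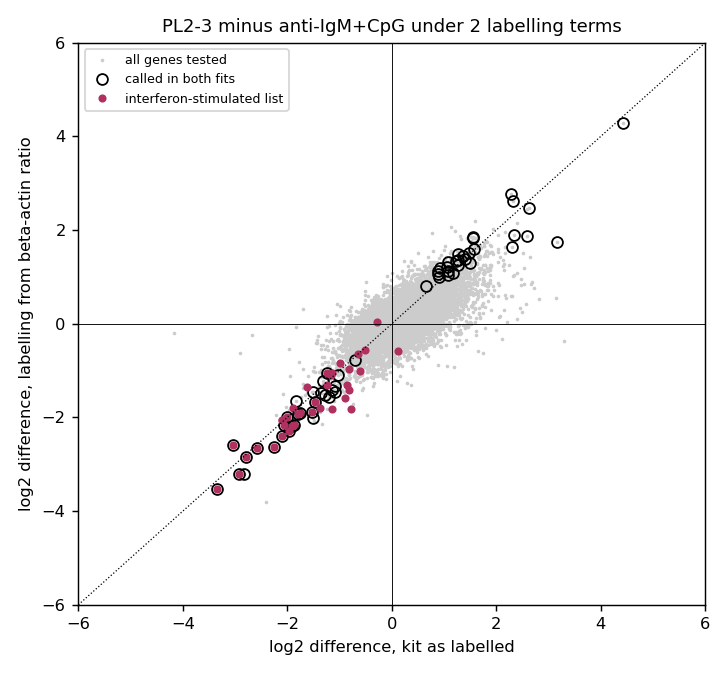
Log2 difference of each of 13160 genes, PL2-3 minus anti-IgM+CpG, with the kit as labelled (horizontal axis) and with labelling taken from the beta-actin ratio (vertical axis); the dotted line marks equal values. Open circles are the 59 genes called in both fits and filled points the 37 tested interferon-stimulated genes, 36 of which lie left of 0.

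The genes lower with PL2-3 were led by interferon-stimulated antiviral genes. Of 41 listed, 37 were tested, and by the kit labels 20 of them were lower with PL2-3 (0.517% of all genes were), 0 were higher and 17 were not called. Their median difference was -1.54 (range -3.35 to 0.12), beside 0.10 over all genes, and 36 of 37 were below 0. In 29 of 37 all PL2-3 arrays lay below all anti-IgM+CpG arrays, against 5.81% of all genes. The actin-based fit called 21 lower, with a median of -1.82, and 17 were called in both. Among low-ratio arrays alone the median was -2.04 with 36 of 37 below 0. Interferon-stimulated genes made up 17 of the 30 genes lower in both fits.

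Mx2, a dynamin-like GTPase that restricts viruses, read 60.9, 48.7 and 70.7 with PL2-3 and 1912, 880 and 1286 with anti-IgM+CpG. Its difference was -3.35 ± 0.37 (limma adjusted p 0.000433), and -3.53 ± 0.40 actin-based. All PL2-3 signals lay under the added constant of 75.19, and the size of the difference depends on it: -4.44 with no constant and -2.34 with a constant of 244.92. The groups did not overlap. Media arrays, at 93.3, 166 and 79.3, were also near it. Mx1, its nuclear relative, read 211, 473 and 360 against 3696, 2436 and 1490 (-2.59 ± 0.34, adjusted p 0.00244), with no overlap. Bst2 (tetherin), which holds budding virions on the cell, read 3565, 2319 and 2953 against 20145, 10647 and 7830 (-2.01 ± 0.33). It stayed above its media range of 1364 to 2282 on all PL2-3 arrays, although that difference of 0.69 ± 0.33 was not called.

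The Ifit genes encode antiviral proteins, of which Ifit1 binds viral RNA ends. Ifit3 read 39.3, 216 and 440 with PL2-3 and 4396, 1752 and 1087 with anti-IgM+CpG (-3.04 ± 0.51, adjusted p 0.00912; actin-based -2.59 ± 0.52). Media gave 1180, 1071 and 1794, so PL2-3 was lower than media too (-2.43 ± 0.51, adjusted p 0.0022), while anti-IgM+CpG was not called against media (0.61 ± 0.51). Ifit1 read 986, 1103 and 473 against 19355, 3298 and 3435 (-2.80 ± 0.54, adjusted p 0.0174). The first anti-IgM+CpG array stood well above the other two, and the groups still did not overlap. Ifit2 read 268, 250 and 151 against 4205, 966 and 544 (-2.26 ± 0.44) and was also lower than media with PL2-3 (-1.57 ± 0.44, adjusted p 0.014).

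Regulators of the interferon response differed the same way. Usp18, which removes ISG15 from proteins and damps the interferon receptor, read 1666, 1372 and 490 with PL2-3 and 22244, 5838 and 4649 with anti-IgM+CpG (-2.92 ± 0.48, adjusted p 0.00912; actin-based -3.21 ± 0.56). Irf7, the transcription factor that amplifies type I interferon, read 2242, 2180 and 1282 against 12574, 4914 and 4694 (-1.80 ± 0.29). PL2-3 was lower than media for Irf7 (-0.99 ± 0.29, adjusted p 0.020) and anti-IgM+CpG higher (0.82 ± 0.29, adjusted p 0.034), so the groups lay on opposite sides of the media arrays. Zbp1, a sensor of Z-form nucleic acid, read 1883, 1423 and 1139 against 8561, 4529 and 3362 (-1.75 ± 0.28). Parp14 and Parp9, ADP-ribosyltransferase family members, differed by -1.87 ± 0.28 and -1.47 ± 0.30, and the chaperone Rtp4 by -2.10 ± 0.30. Xaf1 differed by -1.91 ± 0.32, and Helz2, which is not on the list, by -1.31 ± 0.23. Phf11d, also not on the list, differed by -1.50 ± 0.28.

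The immunity-related GTPases, known for targeting vacuoles of intracellular pathogens, were lower with PL2-3 in 2 of the named members. Ifi47 read 12237, 5605 and 5797 with PL2-3 and 55337, 24723 and 21523 with anti-IgM+CpG (-2.06 ± 0.36, adjusted p 0.012). Irgm1 read 7719, 6165 and 2619 against 20658, 14814 and 10277 (-1.54 ± 0.28). The PL2-3 arrays of Ifi47 straddled its media range of 7077 to 7985 and the groups compared did not overlap. Igtp was called by the kit labels (-1.90 ± 0.39) and missed the actin-based threshold (-1.81, adjusted p 0.073).

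Not every interferon-stimulated gene was called. The values were 0.12 for Iigp1, -0.28 for Psmb8 and -0.51 for Oas2, none called in either fit. The other probe set of Iigp1 gave -0.42 and that of Psmb8 -1.39. The signal transducers Stat2 and Irf9 were called in the actin-based fit alone, at -1.82 and -1.01, against -0.78 and -0.60 by the kit labels. Irf1 also passed in that fit alone (-1.82, against -1.14). Against media, the same 37 genes had a median of -0.53 with PL2-3, with 13 lower and 1 higher. With anti-IgM+CpG the median was 0.95, with 20 higher and 0 lower. Over all genes, 13.5% were lower and 12.4% higher than media with PL2-3, and 24.8% were lower and 17.2% higher with anti-IgM+CpG. Media arrays enter both of those comparisons.

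Replicate 1 of anti-IgM+CpG was the highest array for most of the genes just described. Without it, 17 interferon-stimulated genes were lower and the median was -1.18, with 33 of 37 below 0. Leaving out each of the 6 arrays in turn gave 8 to 24 lower calls and medians of -1.82 to -1.18. The count fell to 8 without PL2-3 replicate 2, and to 13 without PL2-3 replicate 1 or replicate 3.

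**Figure D3:**
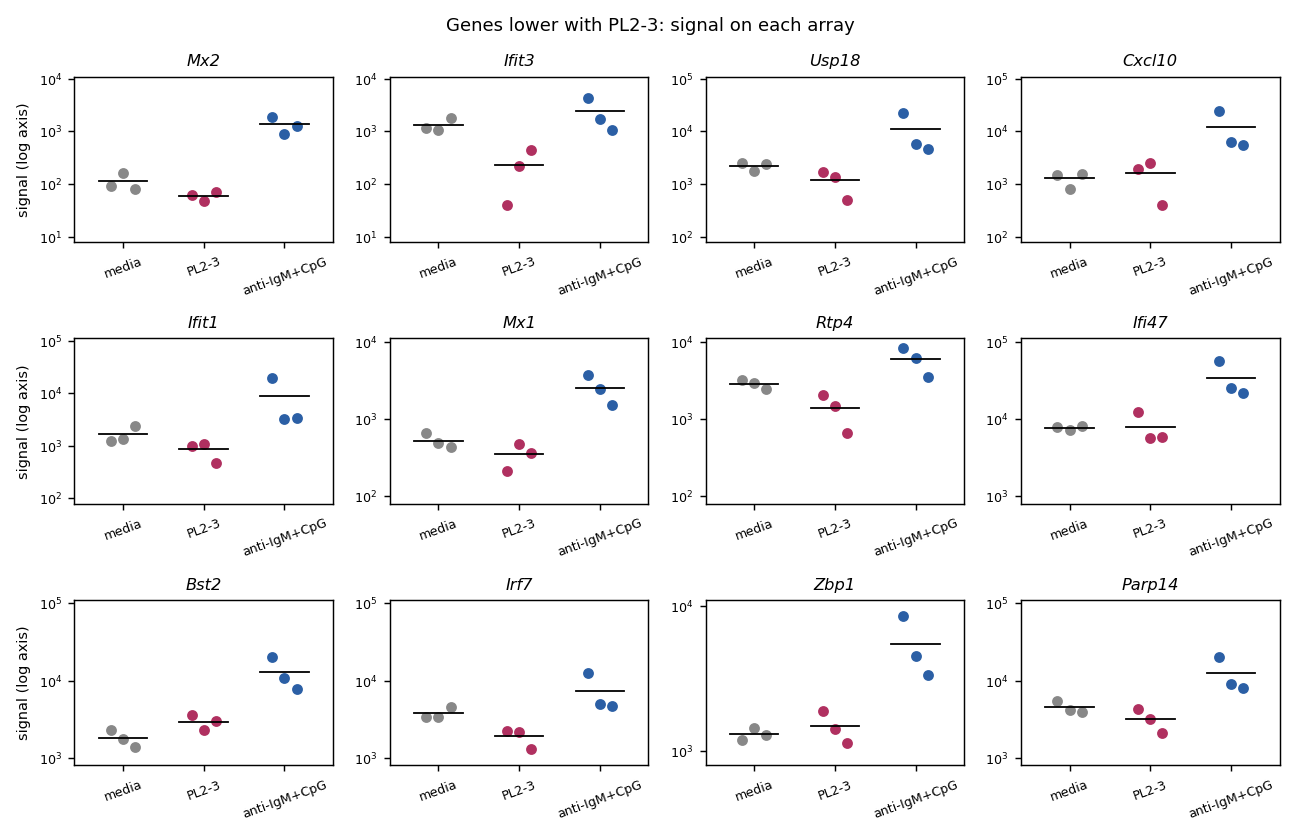
Signal on each array (log axis) of 12 genes lower with PL2-3, in media, PL2-3 and anti-IgM+CpG; points are the 3 arrays of a group and the bar is their mean. The PL2-3 points lie below the anti-IgM+CpG points in every panel; for Mx2 they are 48.7 to 70.7 against 880 to 1912.

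Among 12 tested chemokines, 2 were lower with PL2-3 and 0 higher (0.517% and 1.32% of all genes were). Their median was -0.43 (-0.70 actin-based). Cxcl10, a ligand of the chemokine receptor Cxcr3, read 1913, 2502 and 400 with PL2-3 and 24746, 6258 and 5464 with anti-IgM+CpG. The difference was -2.83 ± 0.50 (limma adjusted p 0.0122), and -3.21 ± 0.59 actin-based. PL2-3 differed from media by 0.05 ± 0.50 and anti-IgM+CpG by 2.88 ± 0.50 (adjusted p 0.00029). Ccl5, a chemokine that attracts T cells, read 6468, 3564 and 4202 against 25658, 12185 and 14536 (-1.83 ± 0.29) and was lower than media with PL2-3 (-1.48 ± 0.29, adjusted p 0.0013). Its arrays did not overlap between the 2 groups. Ccl3 and Ccl4, chemokines that activated B cells release, overlapped between the groups and differed by -0.27 ± 0.31 and 0.06 ± 0.29. These 2 genes and those in the next sentences were chosen after their values were seen. Ifng, which encodes interferon gamma, read 4076, 3618 and 34.7 with PL2-3 and 21857, 3948 and 2740 with anti-IgM+CpG. Its difference of -2.40 ± 0.76 was not called (adjusted p 0.101), and the groups overlapped. Tbx21, the transcription factor T-bet, read 9468, 9891 and 2434 against 23768, 23049 and 16567 and was not called either (-1.75 ± 0.47, adjusted p 0.0626).

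Of 24 tested cytokine genes, 2 were lower with PL2-3 by the kit labels (0.517% of all genes were). In the actin-based fit 0 were lower (0.342% of all genes were). The 2 were the interleukin 1 genes Il1a (-1.35 ± 0.28; actin-based -0.99, adjusted p 0.269) and Il1b (-0.98 ± 0.22; actin-based -0.68, adjusted p 0.229). Il1b read 3017, 3189 and 5506 with PL2-3 and 7578, 7789 and 7106 with anti-IgM+CpG, without overlap. Il6 and Tnf, looked up after the list was fitted, overlapped between the groups, at -0.12 ± 0.33 and -0.20 ± 0.38.

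Socs3, the inhibitor that cytokine receptors induce against their own Janus kinases, read 4684, 6156 and 2322 with PL2-3 and 11956, 11067 and 12371 with anti-IgM+CpG. The difference was -1.52 ± 0.21 (adjusted p 0.00365) and -2.01 ± 0.18 actin-based (adjusted p 4.29e-05). Both groups were above media, by 0.84 ± 0.21 and 2.36 ± 0.21, so this gene rose in both and lay lower with PL2-3. It was the 1 called gene of the 19 tested JAK, STAT, SOCS and Pim genes, whose median was -0.04. Over all genes, 1.84% were called. The actin-based fit called 3 of the 19 lower (0.342% of all genes were), adding the family members Socs1 (-1.89, against -1.38 by the kit labels) and Cish (-1.46, against -0.92). Their median there was -0.33.

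By the kit labels, 3 of 19 tested NF-kB factors and targets were lower and 0 higher (0.517% and 1.32% of all genes were). The actin-based fit called 1 lower (0.342% of all genes were), and the medians were -0.33 and -0.47. Icam1, an adhesion molecule that NF-kB induces, read 5200, 6208 and 6964 with PL2-3 and 11390, 16075 and 12965 with anti-IgM+CpG. Its difference was -1.12 ± 0.19 (adjusted p 0.00998) and -0.79 actin-based (adjusted p 0.0716). Nfkbib, the inhibitor IkB-beta, read 13545, 14836 and 16234 against 23788, 21842 and 25700 (-0.68 ± 0.13; actin-based adjusted p 0.0765). The groups overlapped for neither gene, and both genes were above media in both groups. Traf1 (-0.54 ± 0.13) turned to 0.39 (adjusted p 0.345) when its probe sets were averaged. The 1 member that the actin-based fit called was Tnfaip3 (A20), at -0.92, against -0.61 by the kit labels.

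The genes higher with PL2-3 mostly lay between media and anti-IgM+CpG. Since these genes were called for low values with anti-IgM+CpG, their place against media is a description and no test. All 29 genes higher in both fits were lower than media with anti-IgM+CpG, beside 24.8% of all genes. With PL2-3, 26 of the 29 lay below media, 13 of them called, beside 13.5% of all genes, and 0 were called above it. Differences among the 29 ran from 0.65 to 4.43.

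Fcmr, the Fc receptor for IgM, read 8346, 6079 and 18007 with PL2-3 and 3625, 2857 and 3361 with anti-IgM+CpG (1.55 ± 0.26, adjusted p 0.00912; actin-based 1.85 ± 0.27). Media gave 29590 to 39582, and PL2-3 differed from media by -1.84 ± 0.26 and anti-IgM+CpG by -3.39 ± 0.26. The 3 groups thus stood in order with no overlap. Inpp5d, the phosphatase SHIP-1 that removes the lipid signal made by PI3-kinase, read 4103, 3330 and 4120 against 1895, 1039 and 1162 (1.49 ± 0.20, adjusted p 0.00365; actin-based 1.50 ± 0.22). It was the 1 called gene of 21 tested B cell receptor signalling genes, whose median was 0.23, beside 1.84% called of all genes. Media gave 12772 to 15009 for Inpp5d, again above both groups.

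Other genes called higher in both fits had varied roles. Dennd1c, a DENN-domain protein that activates Rab35, read 1127, 780 and 727 with PL2-3 and 38.4, 122 and 82.7 with anti-IgM+CpG (2.62 ± 0.29, adjusted p 0.000433; actin-based 2.48 ± 0.32). Acap1, an Arf6 GTPase-activating protein, read 3736, 5831 and 5754 against 2844, 1753 and 1665 (1.27 ± 0.25). Chst15, a sulfotransferase of chondroitin chains, read 1366, 813 and 2165 against 59.1, 292 and 401 (2.31 ± 0.46; actin-based 2.63 ± 0.54). None of these 3 overlapped between the groups. Signals as low as those of Dennd1c and the 59.1 of Chst15 with anti-IgM+CpG make the size of both differences depend on the added constant. Plec, the cytoskeletal linker plectin, differed by 1.16 ± 0.20 and the histone deacetylase Hdac10 by 1.07 ± 0.21. The metabolic genes Ephx1, an epoxide hydrolase, Acads, a mitochondrial acyl-CoA dehydrogenase, and Lpl, lipoprotein lipase, differed by 1.57 ± 0.29, 1.22 ± 0.23 and 1.56 ± 0.31. Tgm2, a transglutaminase, differed by 1.27 ± 0.26, and the membrane carriers Slc25a45 and Slc37a2 by 1.41 ± 0.25 and 1.08 ± 0.23. Acads read 1820, 1802 and 2030 with PL2-3, inside its media range of 1794 to 2379, and 747, 933 and 639 with anti-IgM+CpG.

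**Figure D4:**
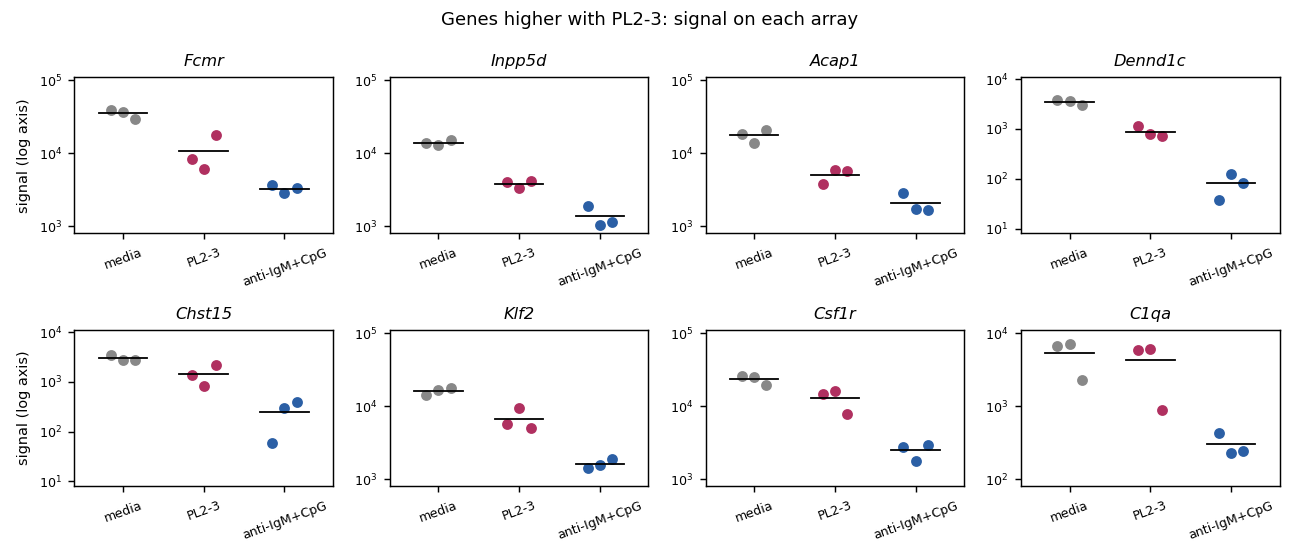
Signal on each array (log axis) of 8 genes higher with PL2-3, in media, PL2-3 and anti-IgM+CpG; points are the 3 arrays of a group and the bar is their mean. Fcmr runs from 29590 to 39582 in media, 6079 to 18007 with PL2-3 and 2857 to 3625 with anti-IgM+CpG; Klf2 was called by the kit labels and not in the actin-based fit.

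Genes of resting B cells were higher with PL2-3 in few members. Of 24 tested quiescence genes, 2 were higher by the kit labels and 0 in the actin-based fit, with medians of 0.28 and 0.34. Over all genes, 1.32% and 0.334% were higher in these fits. Klf2, a Kruppel-like factor of quiescent lymphocytes, read 5626, 9341 and 5050 with PL2-3 and 1441, 1570 and 1895 with anti-IgM+CpG (1.94 ± 0.33, adjusted p 0.00998; actin-based 1.49 ± 0.33, adjusted p 0.0506). The groups did not overlap, and both were below media (14095 to 17419). Rgs2, which limits G protein signals, differed by 1.22 ± 0.23, and 0.79 actin-based (adjusted p 0.194). The B lineage list gave 1 higher of 19, which was Fcmr, and the actin-based fit called 2, adding Fcrla (2.06, against 1.13). The marginal zone list gave 1 higher of 14, Cd1d1 (1.90 ± 0.44, and 1.54 actin-based with adjusted p 0.316), with 0 in the actin-based fit. Cd1d1 read 560, 125 and 14.7 with anti-IgM+CpG, so the size of its difference depends on the added constant.

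Immediate early genes, the first transcripts after receptor ligation, gave 2 higher of 22 by the kit labels and 0 in the actin-based fit. Over all genes, 1.32% and 0.334% were higher in these fits. The median of the list turned from 0.43 to -0.10. Egr1, an early growth response factor, read 27525, 37661 and 12927 with PL2-3 and 12283, 11347 and 10169 with anti-IgM+CpG. Its 1.08 ± 0.21 (adjusted p 0.0174) became 0.30 ± 0.17 actin-based (adjusted p 0.626), and PL2-3 replicate 3, the array with the low control ratio, lay near the anti-IgM+CpG arrays. Btg2, an antiproliferative early gene, differed by 1.01 ± 0.18, and 0.48 actin-based (adjusted p 0.214).

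Of 20 tested myeloid markers, 6 were higher with PL2-3 and 1 lower by the kit labels (1.32% and 0.517% of all genes were), and 2 higher and 0 lower in the actin-based fit, with medians of 0.76 and 0.75. By the kit labels 4 of the 20 were below 0. In 7 of 20 all PL2-3 arrays lay above all anti-IgM+CpG arrays, against 11.6% of all genes. C1qa, a chain of complement C1q, read 5810, 6025 and 871 with PL2-3 and 431, 228 and 239 with anti-IgM+CpG (3.15 ± 0.41, adjusted p 0.00244; actin-based 1.74 ± 0.34). Csf1r, the receptor for macrophage colony-stimulating factor, read 14551, 16253 and 7916 against 2750, 1763 and 2948 (2.31 ± 0.33; actin-based 1.63 ± 0.28). Neither overlapped, and the media arrays were at 19153 to 26140 for Csf1r. C1qc differed by 2.65 ± 0.49 (actin-based 1.42, adjusted p 0.182). Marco, a macrophage scavenger receptor, went the other way (-1.79 ± 0.35; actin-based -0.82, adjusted p 0.413). The remaining 3 called members were C1qb, Cd68 and Tyrobp, named after their values were seen. The other 13 were not called, among them Mpeg1 (-0.45 ± 0.25), Lyz2 (-0.15 ± 0.42), Cd14 (0.28 ± 0.25), Itgam (0.30 ± 0.50) and Adgre1 (0.81 ± 0.31), also named after their values were seen. Mmp12, the macrophage elastase, is not on the list. It read 558, 334 and 979 with PL2-3 and 7.94, 35.7 and 186 with anti-IgM+CpG (2.27 ± 0.44). Clec1b read 1113, 565 and 491 against 40.9, 28.4 and 202 (2.34 ± 0.43). For both genes, anti-IgM+CpG signals under the added constant of 75.19 make the size of the difference depend on it.

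The summed signal of the 20 myeloid markers was 88170, 122208 and 84008 with PL2-3 and 178410, 27491 and 44270 with anti-IgM+CpG, against 176564 to 310919 in media. The high sum of anti-IgM+CpG replicate 1 came with the neutrophil genes S100a8, at 64079 there and 3035 and 9882 on the other arrays of the group, and S100a9, at 61730 against 1715 and 5723. In these bulk samples, fewer cells of a type and less RNA per cell cannot be told apart, and the part of other cells in the differences above was not tested. Summed B cell markers were 32314 to 69590 with PL2-3 and 31029 to 52318 with anti-IgM+CpG, and 0 of the 5 tested were called. All 8 tested T cell, 9 NK cell and 3 erythroid markers were likewise not called. Their sums were 3170 to 4929 against 2450 to 5421 for T cells, 4170 to 11372 against 4035 to 11327 for NK cells and 30775 to 41038 against 29236 to 97530 for erythroid cells. The highest erythroid sum was also that of anti-IgM+CpG replicate 1.

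Many of the lists showed 0 called genes by the kit labels. Over all genes, 1.84% were called by the kit labels and 0.676% in the actin-based fit, so 0 calls in lists this short say little. Ribosome biogenesis genes gave 0 of 32 called, with a median of -0.32 and 30 of 32 below 0. Against media, 31 of these 32 were higher with PL2-3 (median 1.49) and all 32 with anti-IgM+CpG (median 1.82). Of all genes, 12.4% were higher than media with PL2-3 and 17.2% with anti-IgM+CpG. The shift of the array medians moved their difference between the ligands to -0.73, and low-ratio arrays alone gave -0.16. Npm1, nucleophosmin of the nucleolus, read 83049, 85792 and 76824 with PL2-3 and 115803, 82456 and 80170 with anti-IgM+CpG (-0.16 ± 0.16). The groups overlapped. Lists of amino acid transport and synthesis (24 tested), glycolysis (18), cholesterol synthesis (20), the unfolded protein response (21), heat shock (18), mitosis (24), apoptosis and survival (19), plasma cells (11) and MHC class II (11) gave 0 calls in either fit. Their medians lay between -0.28 and 0.16 by the kit labels and between -0.15 and 0.37 in the actin-based fit. Some changed sign between the fits, among them cholesterol synthesis (-0.26 and 0.17) and the unfolded protein response (-0.28 and 0.04). Against media, the mitosis, apoptosis and survival, plasma cell and MHC class II lists had medians below 0 in both groups. The others of these lists had medians above 0 in both. A p that misses the threshold does not show that these genes were alike.

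Other lists had a few called members, beside 1.32% of all genes higher and 0.517% lower by the kit labels. In the actin-based fit these shares of all genes were 0.334% and 0.342%. The activation surface list gave 1 lower of 22, Slamf1, a self-ligand receptor, which read 2162, 2620 and 1631 with PL2-3 and 5785, 5236 and 5662 with anti-IgM+CpG (-1.37 ± 0.29; actin-based -1.34, adjusted p 0.0716). The actin-based fit called Cd274 (PD-L1) in its place, at -1.71 against -0.74 by the kit labels. Toll-like receptor signalling gave 0 of 23 called by the kit labels and 1 lower in the actin-based fit, Tlr7, the RNA sensor, at -1.46 against -1.05. Irf8, the brightest member of that list, overlapped (-0.30 ± 0.20). The G1 to S and replication list gave 1 higher of 35, Cdc45 (2.13 ± 0.38, and 1.36 actin-based with adjusted p 0.0771). The other probe set of Cdc45 went the other way, at -0.57 by the kit labels. Lysosome and endosome genes gave 3 higher of 24, beside 1.32% of all genes, and 0 in the actin-based fit. These were Acp5, Ctsb and Ctsl, by 1.55 ± 0.35, 1.05 ± 0.22 and 1.04 ± 0.23. By the kit labels, the other probe set of Ctsl gave 0.02 and those of Ctsb 0.85 to 2.01. Acp5, Ctsb and Ctsl stayed called in 7, 9 and 8 of 21 alternative settings. Of the 20 tested myeloid markers, 6 were higher by the kit labels on the same arrays, 1 was lower and 13 were not called. The actin-based fit called 2 of them higher. The part of myeloid cells in the differences of Acp5, Ctsb and Ctsl was not tested. The ERK and calcium list gave 0 of 20 by the kit labels and 1 higher actin-based, Rasgrp2 (1.57), and class switch and germinal centre genes 0 of 16 and 1 higher, Id3 (1.81).

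**Figure D5:**
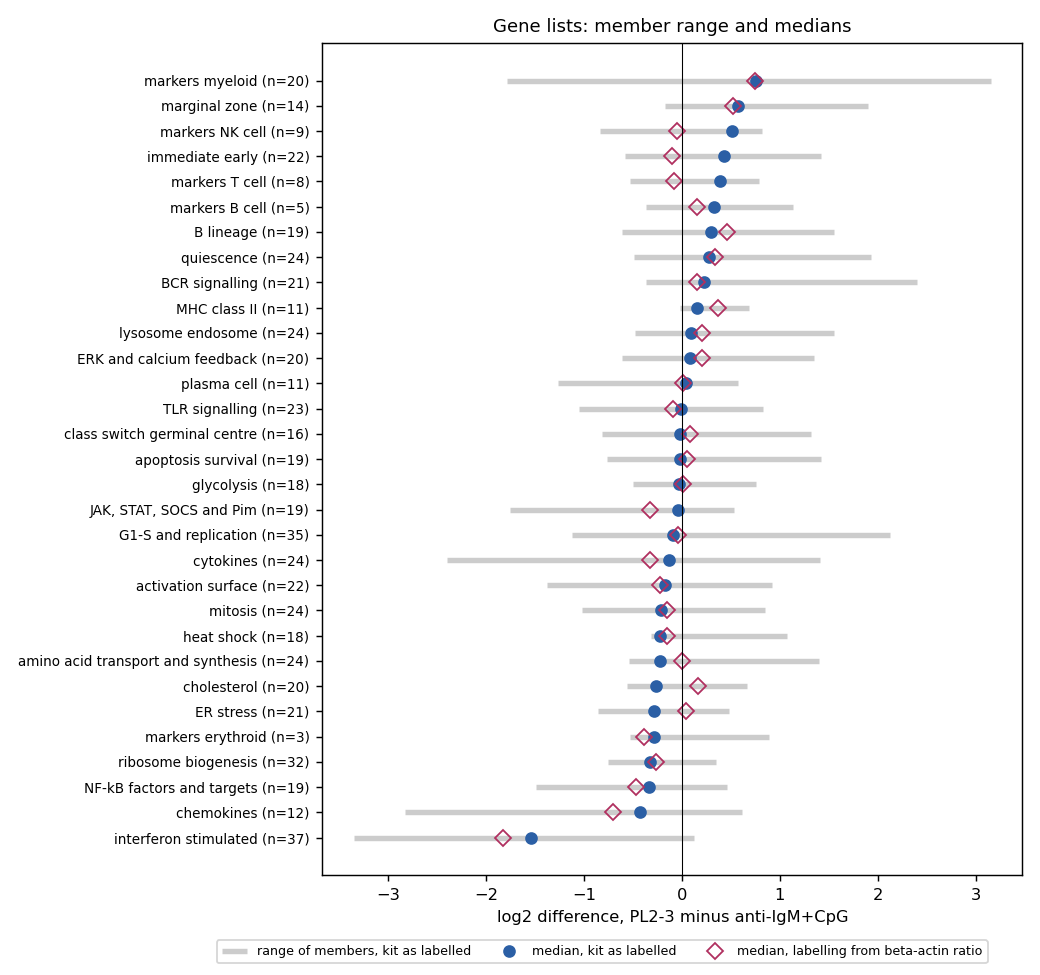
Log2 difference, PL2-3 minus anti-IgM+CpG, for 31 gene lists; grey bars span the lowest to the highest member with the kit as labelled, filled circles are the medians of that fit and open diamonds those of the actin-based fit. The interferon-stimulated list has the lowest medians (-1.54 and -1.82), the myeloid markers the highest (0.76 and 0.75), and the median over all genes is 0.10.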

How the data were processed

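RNA of AM-14 B cells was measured on 15 Affymetrix mouse arrays in 5 groups of 3, grouped by their titles. The deposited values are a linear intensity per probe set, which the authors computed with MAS5 per the submitters' processing notes; its version and scaling target are not given in the sources used. Labelling used the Enzo or the Ambion kit per the labels' protocols, and the array medians differ, so labelling and scaling bear on every value.

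Of 45037 probe sets besides 64 controls, 34945 had 1 gene symbol, 932 several and 9160 none listed; 34741 matched RefSeq by gene identifier. The 18193 genes were each represented by their brightest single-symbol probe set, and 13160 whose signal reached the median of its array on 3 or more of the 15 arrays were tested. The fit was limma lmFit and eBayes with a trend on log2(signal + 75.19), with 5 groups and the labelled kit as terms (9 residual degrees of freedom), two-sided, with Benjamini-Hochberg adjustment over all genes. Replicates correlated at 0.904 to 0.949 (PL2-3) and 0.941 to 0.974 (anti-IgM+CpG) on the log2 scale. Precision is limited by 3 arrays per group.

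Genes named by size were the 20 largest in each direction called in both the labelled-kit and the actin-based fit, without overlap between groups and with other probe sets in the same direction; of each list, up to 4 called members, or the brightest where none was called. Not every gene the rule allows is printed. Among genes called in both fits, 6 had a probe set going the other way and were not named. The members and the 32 lists (645 genes, 591 tested) were chosen with earlier results of these data known. Alternatives covered labelling terms, normalization, pseudocount, filter, model and leaving out each array. The procedure was tested on simulated data in which the kit labels were right, so that test does not bear on the doubt about labelling. R 4.3.3, limma 3.58.1, jsonlite 2.0.0, Python 3.11.15, matplotlib 3.10.9 and pandas 2.3.3 were used.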

Additional observations from a re-analysis of the deposited data

How the results depend on the processing

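The interferon-stimulated genes kept a negative median, from -2.04 to -1.18, under every alternative run, with 0 called higher. The whole count moved far more. Against 242 called (174 higher, 68 lower, 20 interferon-stimulated genes lower), the actin-based fit gave 89 (44, 45) and the beta-actin ratio as a covariate 77 (44, 33). Low-ratio arrays alone gave 0 (0, 0, with 0 interferon-stimulated genes) and 773 at an unadjusted p under 0.05, with 2 residual degrees of freedom. No labelling term gave 27 (12, 15, with 12 interferon-stimulated genes), and the arrays labelled Enzo 1356 (857, 499). Quantile normalization gave 89 (50, 39), arrays shifted to the same median 611 (82, 529), and no filter 157 (108 higher). eBayes without a trend gave 78 (58, 20, with 12 interferon-stimulated genes), a fit of the 6 arrays alone 24 (10, 14, with 10 interferon-stimulated genes), and the mean of probe sets 45 lower. Leaving out each array gave 24 to 1667 calls (13 to 1004 higher, 11 to 663 lower, and 8 to 24 interferon-stimulated genes lower). The count was 46, 24 and 87 without PL2-3 replicate 1, 2 and 3, and 221, 69 and 1667 without anti-IgM+CpG replicate 1, 2 and 3. The cause was not tested. The other alternatives stayed within 1.5 times the count. Traf1 turned to 0.39 with the mean of probe sets. Of 60 genes followed through the alternatives, 42 lost their call in the fit of the 6 arrays alone. The number was 40 without PL2-3 replicate 2, 33 with no labelling term and 0 with the replicate number as a block. Chst15 and Mmp12 stayed called in 10 and 11 of 20 alternatives. Slc37a2, Hdac10, Tgm2 and Lpl did so in 10, 11, 11 and 12 of 21, and Xist in 20 of 21.

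Same-numbered arrays of the groups did not deviate together (r of 0.00083, 0.047 and 0.031, against -0.053 to 0.019 for different numbers), so the numbers were not taken as pairs. With the replicate number as a block, 280 genes were called (192 higher, 88 lower, 22 interferon-stimulated genes lower), 235 of them among the 242.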

Other observations

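Probe sets with several gene symbols or none are in no comparison above. Of 27881 probe sets that passed the filter, 4822 were of this kind, limma called 74 of them by the kit labels, and 6 were called in both fits. The probe set 1449009_at, assigned to both Tgtp1 and Tgtp2, 2 interferon-induced T cell GTPases, read 7460, 2864 and 1072 with PL2-3 and 38156, 17683 and 13535 with anti-IgM+CpG (-2.84 ± 0.46, adjusted p 0.0102). Its arrays did not overlap. The probe set 1423555_a_at, with no symbol listed, was also lower (-2.01 ± 0.37). The probe set 1436944_x_at, assigned to the pseudogenes Pisd-ps1 and Pisd-ps3, was higher (1.41 ± 0.21).

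The other 3, with no symbol listed, were higher with PL2-3. Some or all of their anti-IgM+CpG signals lay near or under 75.19, the 20th percentile of the table and the constant added before the logarithm, so the size of these differences depends on that constant. 1456182_x_at read 10653, 8107 and 17364 with PL2-3 and 132, 16.8 and 119 with anti-IgM+CpG (6.22 ± 0.51). 1433438_x_at read 9239, 8347 and 11896 against 131, 297 and 155 (5.23 ± 0.55), and 1456456_x_at read 3233, 3814 and 3762 against 25.9, 58.7 and 39.8 (4.98 ± 0.28). All 3 were also well above the anti-IgM+CpG arrays in media, as Xist was.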
